A study of Rattus norvegicus with 6 samples.

Results

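The 10 genes described here belong to the cells that wrap blood vessels: Acta2, Myh11, Tagln, Cnn1, Smtn and Cald1 of the smooth muscle contractile apparatus, their coactivator Myocd, and the mural cell genes Pdgfrb, Rgs5 and Cspg4. They were taken by gene symbol from 15037 genes with a symbol, with earlier results of these data known. For that reason the list as a whole was not tested. Each of the 10 had 1 row among the 23188 rows tested. The RNA came from whole hearts of male Sprague-Dawley rats, given as 10 weeks old, and was measured on 6 Clariom S Rat arrays, which report 1 signal per transcript on a log2 scale. The labels define 3 groups of 2 arrays each: normal hearts, hearts under TAC (a silk ligature narrowing the transverse aorta over a blunt needle), and TAC-R hearts, freed of that ligature again. Rats operated on without the ligature are mentioned too, and whether the normal hearts came from them is not stated. Not stated either are the durations of TAC and of release, and whether a group holds 1 animal or 2. The p-values therefore reflect the spread among these arrays alone, and this spread may be technical.

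Smooth muscle cells contract arteries, and pericytes cover capillaries. The contractile genes of smooth muscle are switched on by serum response factor, SRF, which binds a DNA element called the CArG box and is driven by its coactivators, myocardin among them. Pericytes are kept on vessels by platelet-derived growth factor from endothelial cells acting on the receptor that Pdgfrb encodes, and fibroblasts can take up part of the contractile programme, Acta2 and Tagln among it, when they become myofibroblasts. In heart, Myocd is also expressed in cardiac muscle cells, so it is no pure marker of vessels.

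The promoters are shown because the CArG box is the element this gene programme is known for. Of the 10 genes, 6 matched the RefSeq promoter table (build GRCr8), with 7 windows of 250 bases before to 50 bases after an annotated start, Cald1 having 2. Tagln, Myh11, Myocd and Pdgfrb had no window, so the search says nothing about them. Both strands were searched for the CArG box, for a CArG-like sequence with 1 G or C within its core of 6 A or T, and for the MCAT core CATTCC, the binding sequence of TEAD factors; none of the matches overlapped each other. A CArG box was found in 0 of the 7 windows (1.64% of all 33469 windows hold one), which at so low a share says little. A CArG-like sequence was found in the Acta2 window alone (8.1% of all windows). The MCAT core was found in the windows of Acta2 and Cald1 (14.2% of all windows). The 250 bases before the start of Acta2, and those of Cnn1, the gene that passed the test below, read as follows, 5′ to 3′ on the strand of the gene. Capitals mark an MCAT core read on the opposite strand and then both CArG-like sequences.

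Acta2, chr1:241172504-241172753, minus strand: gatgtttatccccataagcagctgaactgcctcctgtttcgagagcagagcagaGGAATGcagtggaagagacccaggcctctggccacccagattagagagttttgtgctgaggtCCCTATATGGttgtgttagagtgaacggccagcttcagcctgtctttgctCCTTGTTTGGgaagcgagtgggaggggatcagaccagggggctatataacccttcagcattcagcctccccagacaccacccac
Cnn1, chr8:28908187-28908436, plus strand: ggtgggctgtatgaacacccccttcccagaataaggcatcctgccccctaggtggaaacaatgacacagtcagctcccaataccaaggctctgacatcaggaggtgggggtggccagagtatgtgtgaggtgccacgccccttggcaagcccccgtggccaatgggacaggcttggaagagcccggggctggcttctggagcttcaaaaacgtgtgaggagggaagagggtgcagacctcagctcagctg

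The CArG-like sequences of Acta2 begin 134 and 84 bases before its start, and each differs from the CArG box at 1 core letter. The Cnn1 window held none of the motifs searched, which says only that these letters are not in these bases. A match is a description of the sequence, and binding was not measured.

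On all 6 arrays cardiac muscle genes were bright, with 12 of 12 measured cardiomyocyte markers above background and a mean list signal of 19.04 to 19.33 log2 units, and the RNA extraction text in the labels names cultured fibroblasts where all other fields name heart. Array medians lay between 5.31 and 5.39. Background was set at the 95th percentile of the negative control rows of each array, 8.09 to 8.55. It was highest on the normal arrays: 8.45 and 8.55 on normal, 8.22 and 8.12 on TAC, and 8.17 and 8.09 on TAC-R arrays. Of the 10 genes, 6 lay above it on all arrays (Acta2, Myocd, Smtn, Cald1, Pdgfrb and Rgs5), Tagln and Myh11 on some, and Cnn1 and Cspg4 on none, so for the last pair the size of a difference is not measured. TAC-R replicate 1 and replicate 2 stood apart from each other and from the other arrays in some atrial genes. The atrial myosin light chain Myl7 had signals of 14.30 and 12.54, against 7.48 to 8.43 elsewhere. Nppa had 13.69 and 11.26, against 8.60 to 10.32. Other atrial markers did not stand apart from the other groups, Dkk3 at 10.77 and 10.68 against 10.46 to 11.37, and Stard10 at 8.24 and 7.60 against 7.81 to 8.58. In a whole organ, fewer cells of a type and less RNA per cell cannot be told apart. A gene is called changed where limma's Benjamini-Hochberg adjusted p over all rows was under 0.05; differences are log2 differences ± the standard error of that model.

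The first comparison set hearts under TAC against normal ones. Of the 10 genes, 9 had a higher mean on the TAC arrays, from 0.11 for Smtn to 1.65 for Cnn1, and Myocd had a lower one; the median difference was 0.52 against 0.00 over all rows tested. Cnn1 rose and the other 9 did not pass, where 0.254% of all rows were called. Both TAC arrays lay above both normal arrays for 7 of the 10 genes (21.9% of all rows) and below them for Myocd (21.3% of all rows). For the same 7 genes both TAC arrays also lay above both TAC-R arrays, so that TAC held the highest pair of all 6 arrays, as it did for 10.1% of all rows.

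**Figure D1:**
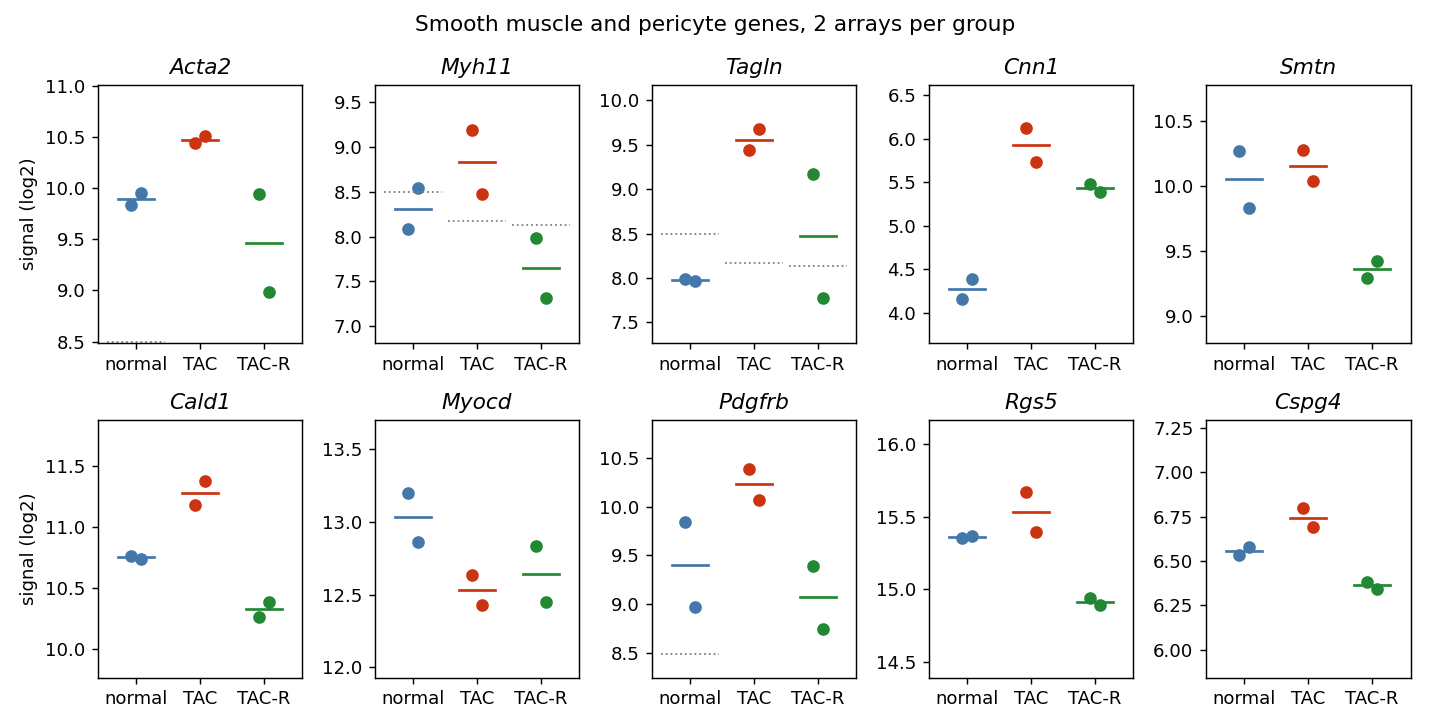
Log2 signal of each of the 10 genes on each array (points, 2 per group) with the group mean (bar); each panel has its own axis, and dotted lines mark the mean 95th percentile of the negative controls in a group where they fall in the panel. Both TAC points lie above the other 4 in 7 panels, both TAC-R points lie below both TAC points in 9, and Myocd has its highest points in the normal group.

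Cnn1 encodes calponin 1, an actin-binding protein of contracting smooth muscle. Its signal was 4.16 and 4.39 on the normal arrays, 6.12 and 5.73 under TAC, and 5.48 and 5.38 on the TAC-R arrays. The groups did not overlap, and TAC was highest. The difference of TAC from normal was 1.65 ± 0.23 (limma, adjusted p = 0.0319), between signals that all lay below background, both normal ones below the median of the negative controls of their arrays. The call was lost whichever array was left out, with adjusted p from 0.0791 without either TAC-R array to 0.289 without TAC replicate 1 (0.284 and 0.201 without normal replicates 1 and 2, 0.123 without TAC replicate 2).

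Tagln encodes transgelin, or SM22, an actin-bundling protein and an early marker of the smooth muscle programme. It read 7.99 and 7.96 on the normal arrays, both below background, against 9.44 and 9.67 under TAC, both above it. TAC was at least 2.09-fold higher, with the background as the floor of the normal arrays and a measured difference of 1.58 ± 0.40. It did not pass (adjusted p = 0.248). The model pools the spread of all groups, and the SD of the pair was 0.02 in normal hearts, 0.16 under TAC and 0.99 in TAC-R hearts, whose arrays read 9.17 and 7.77. These 2 arrays lay on opposite sides of both normal arrays.

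Acta2 encodes the smooth muscle actin that also marks myofibroblasts. It read 9.84 and 9.95 on the normal arrays and 10.44 and 10.51 under TAC, with no overlap and a difference of 0.58 ± 0.31 (adjusted p = 0.547). Its protein is nearly the same as cardiac actin, whose gene Actc1 stood at the ceiling of the values, 19.93, on all arrays, and how far the Acta2 probes also bind Actc1 RNA was not tested. Myh11, the smooth muscle myosin heavy chain and the most specific marker of the mature cells, overlapped between groups, at 8.08 and 8.55 in normal hearts and 9.20 and 8.48 under TAC (0.52 ± 0.33, adjusted p = 0.611). Of these signals, both TAC ones lay above background, and 1 normal one barely did (8.5472 against 8.5467). Background was lower on the TAC arrays, and the TAC signal of 8.48 was dimmer than that normal one.

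Cald1, whose caldesmon restrains actomyosin in smooth muscle and other cells, read 10.76 and 10.74 on the normal arrays against 11.18 and 11.38 under TAC. The pairs were tight and apart (0.53 ± 0.21, adjusted p = 0.45). Smtn, which encodes smoothelin, a protein of fully differentiated smooth muscle, read 10.27 and 9.84 against 10.28 and 10.04. Its groups overlapped, and the difference of 0.11 ± 0.24 (adjusted p = 0.913) changed sign without normal replicate 2 or without TAC replicate 1. Myocd, the coactivator, had 13.20 and 12.86 in normal hearts and 12.63 and 12.43 under TAC. It was the 1 gene of the 10 with a lower mean under TAC (-0.50 ± 0.24, adjusted p = 0.514).

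Among the mural cell genes, Pdgfrb, the receptor through which pericytes are recruited, read 9.85 and 8.97 on the normal arrays and 10.39 and 10.06 under TAC. The normal pair was the wider one, and the groups did not overlap (0.82 ± 0.34, adjusted p = 0.464). Rgs5, a regulator that shortens G protein signals in pericytes and arterial muscle, had 15.36 and 15.37 against 15.67 and 15.40 (0.17 ± 0.21, adjusted p = 0.822). The lower TAC array lay just above the normal pair. Cspg4, which encodes the NG2 proteoglycan of pericytes, had 6.53 and 6.58 against 6.80 and 6.69, all below background (0.19 ± 0.20, adjusted p = 0.793).

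At an unadjusted p under 0.05, 4 of the 10 genes were higher under TAC (Cnn1, Tagln, Cald1 and Pdgfrb) and 0 were lower, where 5.43% of all rows were higher and 4.89% lower. The 95% intervals of the differences of Acta2, Myh11, Smtn, Myocd, Rgs5 and Cspg4 included 0, and for Acta2 the interval ran from -0.12 to 1.28.

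**Figure D2:**
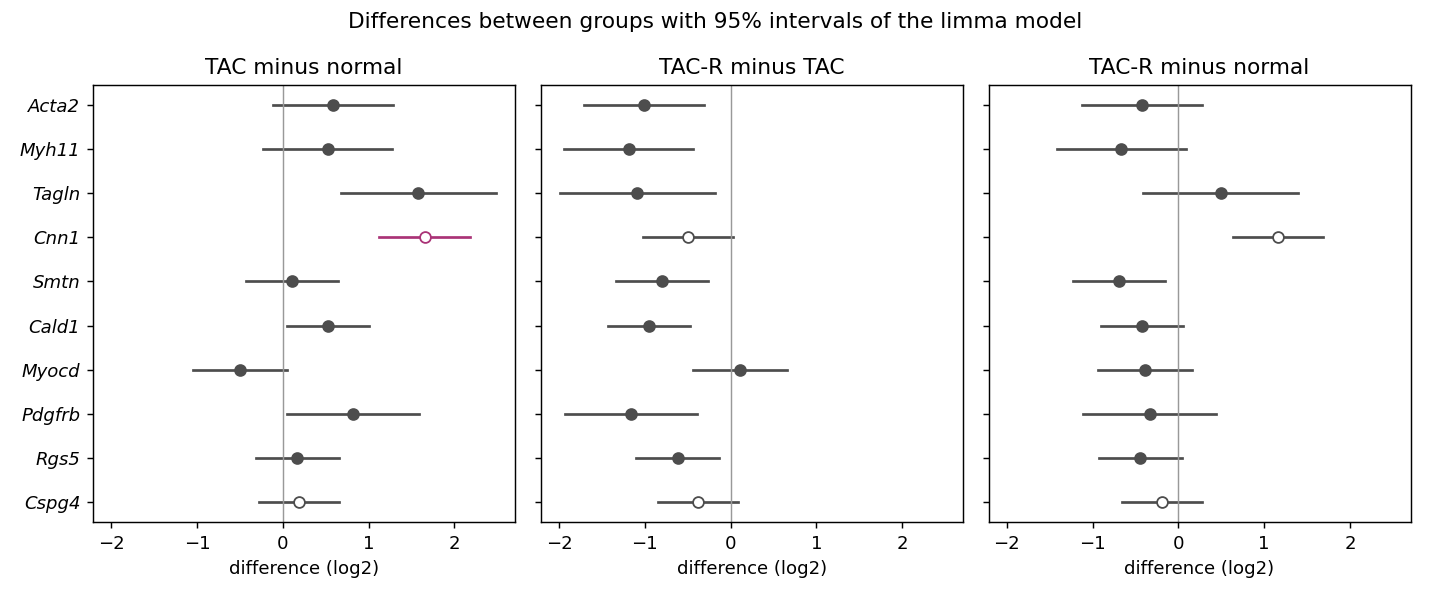
Log2 difference of each gene in the 3 comparisons (points) with the 95% interval of the limma model (lines); the coloured point passed the adjusted threshold, and open points lay below background in both groups. Cnn1 is the 1 coloured point, 9 of 10 points lie above 0 for TAC minus normal, and 9 of 10 below 0 for TAC-R minus TAC.

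The second comparison set TAC-R hearts against hearts still under TAC. It shares the TAC arrays with the first, so a high TAC array moves both. Of the 10 genes, 9 had a lower mean on the TAC-R arrays, and in all 9 both TAC-R arrays lay below both TAC arrays (20.4% of all rows did). The median difference was -0.88 against 0.00 over all rows, and the largest differences were those of Myh11 (-1.19) and Pdgfrb (-1.16). None passed: limma called 0 of the 10 (0.431% of all rows were called), and 7 were lower and 0 higher at an unadjusted p under 0.05 (6.2% and 4.79% of all rows).

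The smallest p belonged to Cald1, at 10.26 and 10.38 on the TAC-R arrays, below every array of the other groups (-0.95 ± 0.21 from TAC, adjusted p = 0.136). With an intensity trend in the moderation Cald1 and Rgs5 were called (adjusted p = 0.0183 and 0.025), and with the dimmer rows left out Cald1 was called (0.0497). Myh11 lay below background on both TAC-R arrays, at 7.98 and 7.31, and TAC was at least 1.63-fold higher (measured difference -1.19 ± 0.33, adjusted p = 0.222). Acta2 read 9.94 and 8.99 on the TAC-R arrays. The first of these lay between the normal arrays and the second was the lowest of the 6 arrays (-1.01 ± 0.31, adjusted p = 0.262). Tagln, with its TAC-R arrays also far apart, differed from TAC by -1.09 ± 0.40 (adjusted p = 0.359).

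Smtn, which had not separated TAC from normal, was at 9.29 and 9.43 on the TAC-R arrays. Both lay below all 4 other arrays (-0.80 ± 0.24 from TAC, adjusted p = 0.251). Cnn1 differed from TAC by -0.49 ± 0.23 (adjusted p = 0.484) and lay above its normal signals. Myocd, at 12.84 and 12.45, overlapped with TAC (0.11 ± 0.24, adjusted p = 0.91), and the sign of that difference turned without TAC-R replicate 1.

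Pdgfrb read 9.39 and 8.75 on the TAC-R arrays, both below the TAC pair (-1.16 ± 0.34, adjusted p = 0.246). Rgs5 was at 14.94 and 14.89. This tight pair lay below the other 4 arrays (-0.62 ± 0.21, adjusted p = 0.331). Cspg4 had 6.38 and 6.34, again below the other 4 arrays and below background (-0.38 ± 0.20, adjusted p = 0.556). Cald1, Rgs5 and Cspg4 were the 3 genes with both TAC arrays above both normal arrays and both of those above both TAC-R arrays, an order chosen for description after the values were seen and shown by 2.3% of all rows.

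The third comparison set TAC-R hearts against normal hearts, and shares arrays with both others. Of the 10 genes, 8 had a lower mean on the TAC-R arrays and Cnn1 and Tagln a higher one, with a median difference of -0.41 against 0.00 over all rows. Limma called 0 of the 10, where 0.0906% of all rows were called; at an unadjusted p under 0.05 Cnn1 was higher and Smtn lower (5.36% and 5.32% of all rows). Both TAC-R arrays lay below both normal arrays for 6 genes (20.3% of all rows) and above them for Cnn1 (20.6% of all rows).

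Cnn1 differed from normal by 1.16 ± 0.23, with every signal below background (adjusted p = 0.167). Smtn differed by -0.69 ± 0.24 (adjusted p = 0.371) and Rgs5 by -0.45 ± 0.21 (adjusted p = 0.503). Myh11 differed by -0.67 ± 0.33 (adjusted p = 0.519). Of its signals on these 4 arrays, 1 normal one alone lay above background, and barely so (8.5472 against 8.5467). The size of the Myh11 difference is thus not well measured. Cald1 differed by -0.43 ± 0.21, Myocd by -0.39 ± 0.24 and Cspg4 by -0.19 ± 0.20 (adjusted p = 0.516, 0.601 and 0.778). Cnn1 and the 6 genes named after it had no overlap between the groups. Acta2, Tagln and Pdgfrb overlapped, with differences of -0.43 ± 0.31, 0.49 ± 0.40 and -0.34 ± 0.34 (adjusted p = 0.65, 0.697 and 0.768). The sign turned for Acta2 without TAC-R replicate 2, for Tagln without TAC-R replicate 1 and for Pdgfrb without normal replicate 1.

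The TAC-R arrays differed from each other, and not in these genes alone. The mean signal of the 10 genes was 9.57 on TAC-R replicate 1 and 9.17 on TAC-R replicate 2. It was lower on replicate 2 in the other groups too, with 9.60 and 9.52 on normal and 10.21 and 10.04 on TAC arrays. Among the 10 genes the widest gaps between the TAC-R arrays were those of Tagln and Acta2, with SDs of 0.99 and 0.68, against 0.03 for Rgs5 and Cspg4. Over all rows tested the median was 5.34 on TAC-R replicate 1 and 5.31 on TAC-R replicate 2. All lists described below except the erythroid one also had a lower mean signal on TAC-R replicate 2. This was not particular to the TAC-R pair in every list. The pericyte list read 6.92 and 6.84 on TAC-R, 7.39 and 7.29 on normal, and 7.68 and 7.55 on TAC arrays. The list of further contractile genes did not fall in the other groups, at 10.14 and 10.15 on normal and 10.33 and 10.38 on TAC arrays. Without TAC-R replicate 2 the median difference from TAC was -0.56 and that from normal was -0.18.

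Other genes of the smooth muscle and pericyte programme were taken from lists drawn up with earlier results of these data known. Of 22 further contractile smooth muscle genes, 0 passed in any comparison; at an unadjusted p under 0.05, 3 were higher under TAC, 6 lower after release and 1 lower against normal. Their median difference was 0.08 for TAC from normal, -0.14 for TAC-R from TAC and -0.10 for TAC-R from normal. Of the 22, Tpm1 and Pln were at the ceiling on all arrays and could show no difference; without them the medians were 0.17, -0.18 and -0.12. The smallest p under TAC were those of Myl9, the regulatory light chain of smooth muscle myosin (1.34 ± 0.30, adjusted p = 0.193), and Csrp1 (0.80 ± 0.26, adjusted p = 0.365). Myl9 read 8.90 and 9.22 on normal, 10.06 and 10.73 on TAC, and 9.22 and 8.65 on TAC-R arrays, so that both TAC arrays stood above the rest. After release, Myl9 (-1.46 ± 0.30, adjusted p = 0.111) and the actin cross-linker gene Flna (-0.95 ± 0.24, adjusted p = 0.178) had the smallest p. Against normal these were Flna (-0.67, adjusted p = 0.376) and Synpo2 (-0.47, adjusted p = 0.499).

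Of 17 regulators of the programme, 0 passed in any comparison, with medians of 0.17, -0.27 and -0.04 in the same order. At an unadjusted p under 0.05, 4 were higher under TAC and 5 lower after release, and against normal 1 was higher and 1 lower. Srf itself, the factor that Myocd partners, read 10.85 and 10.39 on normal arrays, 11.57 and 11.55 under TAC, and 11.70 and 11.33 on TAC-R arrays. The TAC and TAC-R arrays lay above both normal ones (0.94 ± 0.25 and 0.90 ± 0.25, adjusted p = 0.27 and 0.3). How the Srf signal relates to the 10 genes was not tested. The other regulators with the smallest p were Prrx1 under TAC (0.87), Tcf21 and Heyl after release (-0.87 and -0.80) and Notch3 against normal (-0.98), all below background (adjusted p = 0.363, 0.203, 0.244 and 0.258).

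Of 18 further pericyte genes, 0 passed under TAC (median 0.25) and 2 fell after release (median -0.69), with 0 calls against normal (median -0.37). At an unadjusted p under 0.05, 4 were higher under TAC, 11 lower after release and 5 lower against normal. Steap4, a metalloreductase, read 9.24 and 9.37 on the TAC arrays and 8.04 and 7.96 on the TAC-R arrays. TAC was at least 2.26-fold higher (measured difference -1.31 ± 0.21, adjusted p = 0.0446). Tbx18, a transcription factor of pericytes and of the epicardium, fell by 1.75 ± 0.22 at signals below background (adjusted p = 0.0157; -1.48 against normal, adjusted p = 0.0756). The call of Steap4 was lost without any 1 array (adjusted p from 0.103 to 0.279), and that of Tbx18 without either TAC or either TAC-R array (up to 0.169). Under TAC the smallest p were those of Steap4 (difference 0.60) and of Rgs4, a relative of Rgs5, at least 1.47-fold above normal arrays below background (adjusted p = 0.398 and 0.453).

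Of 6 PDGF ligands and receptors, 0 passed in any comparison, with medians of 0.32, -0.51 and -0.02 (at an unadjusted p under 0.05, 2 higher, 3 lower and 0). Pdgfa was above background on the TAC arrays alone, at least 1.10-fold higher than normal and at least 1.41-fold higher than in TAC-R hearts (adjusted p = 0.209 and 0.27). The fibroblast receptor gene Pdgfra had differences of 0.74 under TAC and -0.78 after release (adjusted p = 0.364 and 0.262). Pdgfb, the endothelial ligand of the Pdgfrb receptor, and Pdgfd lay below background on all arrays (adjusted p = 0.689 and 0.5 for TAC-R from normal). Of 15 other RGS genes 0 passed in any comparison, with medians of -0.13, -0.14 and -0.27 (at an unadjusted p under 0.05, 1 higher, 2 lower and 3 lower). Rgs4 differed by -1.02 and Rgs6 by -0.62 after release (adjusted p = 0.174 and 0.346), and Rgs3 by -0.59 against normal (0.444). Rgs19 under TAC (0.528) and Rgs7 against normal (0.451) had signals below background on all arrays. Of 10 markers of the large vessel wall 0 passed, with medians of 0.42, -0.72 and -0.28 (at an unadjusted p under 0.05, 3 higher, 6 lower and 2 lower). Under TAC elastin, Eln, was at least 1.72-fold above normal arrays that lay below background, and Fbln1 had a difference of 1.01 (adjusted p = 0.232 and 0.277). Eln and Fbn1 had differences of -0.95 and -1.19 after release (0.152 and 0.131), and Fbn1 of -0.68 against normal (0.415), where Emilin1 was below background on all arrays (0.447).

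**Figure D3:**
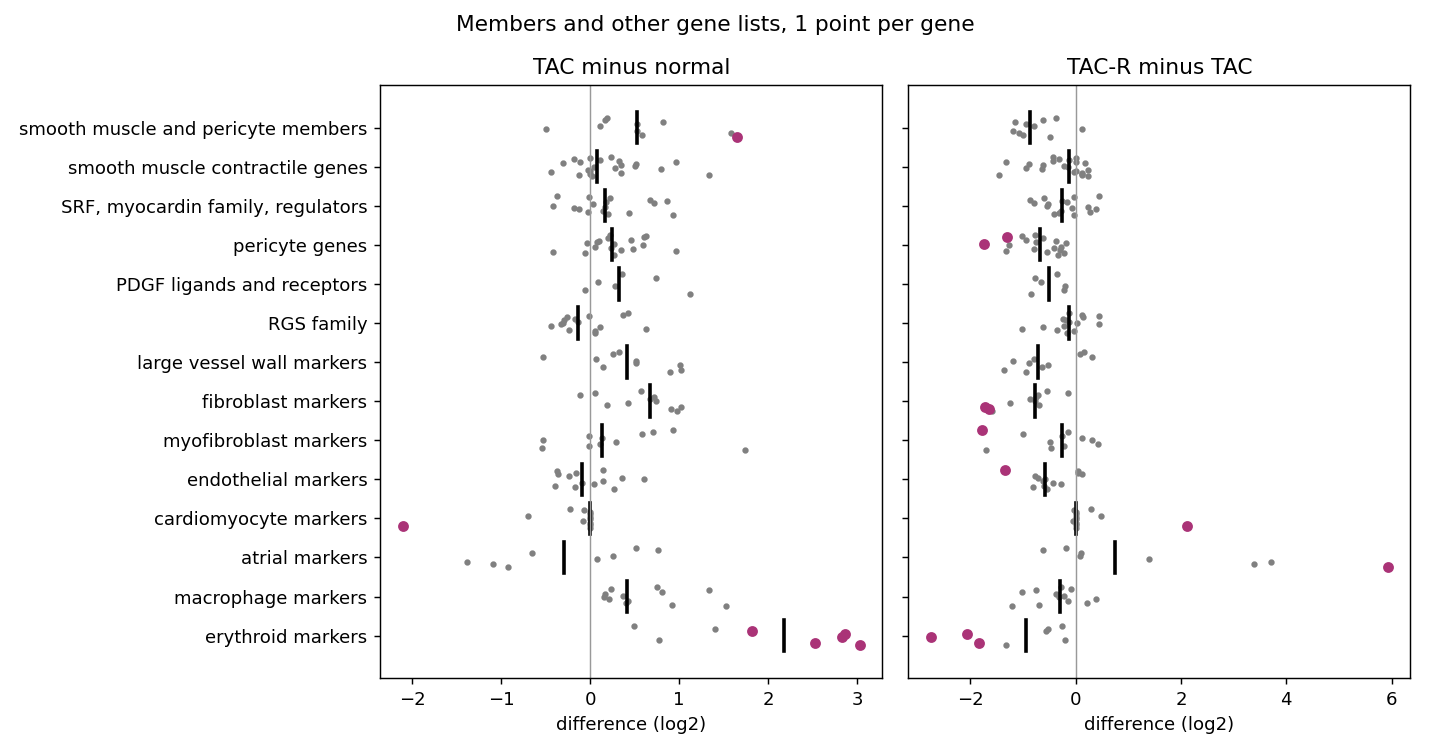
Log2 difference of every measured gene of the 10 described here (top) and of the other lists (1 point per gene), with the median as a bar and called genes in colour; the horizontal scales of the panels differ. The median of the 10 is 0.52 for TAC minus normal and -0.88 for TAC-R minus TAC.

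Markers of other cells differed between the groups too, in some lists in the direction of the 10 genes and in others not. Their part in the results was not tested. At an unadjusted p under 0.05, the fibroblast list had 6 higher under TAC and 9 lower after release, the myofibroblast list 3 and 3, the endothelial list 1 and 7, and the macrophage list 5 and 4. Of 11 fibroblast markers, 0 passed under TAC (median 0.67, led by Col3a1 at 1.02 and Col1a1 at 0.97) and 2 fell after release, Col1a2 (-1.66 ± 0.27, adjusted p = 0.0469) and Col3a1 (-1.72 ± 0.24, adjusted p = 0.0269; median -0.78). The mean signal of the fibroblast list was 9.92 to 10.09 on normal, 10.56 to 10.57 on TAC and 9.47 to 9.71 on TAC-R arrays. Of 11 myofibroblast markers, Acta2 among them, 0 passed under TAC (median 0.13, from -0.54 for Fap to 1.74 for Postn) and Fn1 fell after release (-1.78 ± 0.29, adjusted p = 0.0496; median -0.25). Fap, Postn and Cilp, the last 2 with the smallest p under TAC, lay below background on all arrays, so these sizes are not measured. Cthrc1, Comp, Ltbp2 and Meox1 of that list were below the median of the negative controls on all arrays. Of 13 endothelial markers, 0 passed under TAC (median -0.09, Emcn 0.61, Esam -0.37) and Aplnr fell after release (-1.34 ± 0.21, adjusted p = 0.0439; median -0.57, Fabp4 -0.78). The mean endothelial signal was 10.70 to 10.73 on normal, 10.66 to 10.74 on TAC and 10.05 to 10.35 on TAC-R arrays. The calls of Col1a2, Col3a1, Fn1 and Aplnr were lost whichever array was left out, with adjusted p from 0.0556 to 0.279 over all 4.

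Of 8 atrial markers, Myl7 rose after release, at least 38.03-fold over TAC (adjusted p = 0.00315) and at least 30.33-fold over normal (adjusted p = 0.0105), and Nppa differed by 3.71 and 2.33 without passing (0.0527 and 0.288). Under TAC 0 of the 8 passed (2 higher and 1 lower at an unadjusted p under 0.05), with Dkk3 at 0.76 and Stard10 above background on 1 normal and 0 TAC arrays. At that unadjusted threshold 4 were higher and 1 lower after release, and 4 higher and 0 lower against normal. The medians of the list were -0.29 under TAC, 0.75 after release and 0.90 against normal. The list's mean signal was 7.36 to 7.49 on normal, 7.11 on TAC and 8.21 to 9.47 on TAC-R arrays. Of the TAC-R arrays replicate 1 was the higher, as it was for the mean signal of the 10 genes and for every other list but the erythroid one. Myl7 was not called against TAC without TAC replicate 2 (0.0501), nor against normal without normal replicate 1 or 2 (up to 0.218). Of 12 cardiomyocyte markers Myh7 fell under TAC (-2.10) and rose after release (2.10; adjusted p = 0.00627 and 0.00663), both lower bounds on the size since 1 array each of the normal and TAC-R pairs was at the ceiling. Ryr2 differed by -0.69, 0.49 and -0.21 in the 3 comparisons, and Actc1, Myl3, Mb, Atp2a2 and Pln were at the ceiling on all arrays. Of 12 macrophage markers 0 passed. Cd68, with the smallest p under TAC and after release, lay below background on all arrays; Ptprc was at least 1.03-fold higher under TAC, the 1 group in which it was above background, and Lyz2 differed by -1.01 after release. Of 8 erythroid markers, 5 rose under TAC (Alas2, Slc4a1, Hbb-b1, Hbb-bs and Hbb, median of the list 2.17), 3 fell after release (Slc4a1, Hbb-b1 and Hbb-bs, median -0.95) and Alas2 was called higher against normal, where its normal signals were below background and the size is not measured (adjusted p = 0.0493). Each of these Myh7 and erythroid calls was lost without TAC replicate 2, and some without other arrays too (highest adjusted p of each from 0.0503 to 0.436).

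Against normal, the fibroblast, myofibroblast, endothelial, macrophage and cardiomyocyte lists had 0 calls on the TAC-R arrays (at an unadjusted p under 0.05, 4 fibroblast, 2 myofibroblast and 5 endothelial markers were lower, and 1 myofibroblast and 3 macrophage markers higher). Their smallest p were those of Lum (-0.82) and Col3a1 (-0.70), Fn1 (-0.85), Aplnr (-1.19) and Fabp4 (-1.02), Ryr2 (-0.21) and Myl2 (-0.14), with Fap, Adgre1 and Cd163 below background on all arrays, and for the erythroid list Alas2 and Hbb (1.24).

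**Figure D4:**
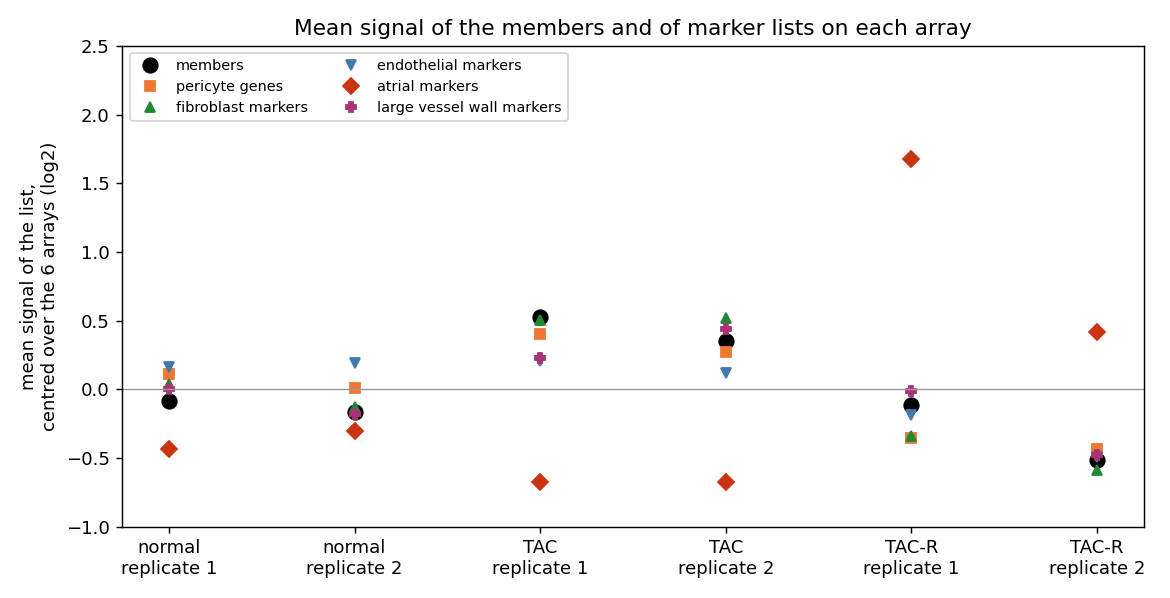
Mean log2 signal of the 10 genes and of marker lists on each array, centred on its mean over the 6 arrays. The 10 genes sit at 0.53 and 0.35 on the TAC arrays and at -0.12 and -0.52 on the TAC-R arrays, with the fibroblast list at 0.50 and 0.52 and at -0.34 and -0.58, and the atrial list at 1.68 and 0.42 on the TAC-R arrays.

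The genes closest in pattern were found as those whose 6 values, centred on their mean, had the smallest root mean square difference from the gene in question, among 4577 other named genes above background. For Acta2 these were Abca2 (0.09 log2 units, against an SD of 0.50 for Acta2 itself), Arnt (0.12) and the collagen receptor gene Ddr2 (0.13). All 3 were highest on both TAC arrays and lowest on TAC-R replicate 2. For Rgs5 they were Camta2, Nfia and Ttc17 (0.05, 0.05 and 0.07, against 0.27). For Cnn1 they were Hbb, Gpm6a and Hbbl1 (0.15, 0.17 and 0.19, against 0.71), of which Hbb and Hbbl1 are globin genes. All genes share the same 6 arrays, so this likeness is a description of these arrays.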

How the data were processed

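The values were the deposited log2 signals of 6 arrays, 1 column per array, which the authors made in Expression Console by RMA (robust multi-array averaging) of core exons, per the labels; no version or background setting is stated there. RMA makes the arrays alike in distribution, so a shift of all transcripts 1 way cannot be seen. From 24834 rows, 1646 control rows were left out, and 15049 of the 23188 others had 1 symbol in the platform table (8139 had none). Updating symbols by gene ID changed 0. Each gene entered with its brightest row. Limma 3.58.1 (R 4.3.3) fitted 1 mean per group to all 6 arrays and all rows, with empirical Bayes moderation and no covariate (3 residual degrees of freedom), adjusted by Benjamini-Hochberg. The fit was tested on simulated data. For 2 against 2 arrays the smallest p of an exact permutation test, two-sided, is 0.33, and the number of arrays limits the precision. A fold printed as "at least" sets the brighter mean against the higher of signal and 95th percentile of the negative controls on each dimmer array. Named beside the 10 genes are those of each list that passed and the 2 with the smallest p in each comparison, and the 3 nearest genes of Acta2, Rgs5 and called members. The genes, lists and tests were chosen with earlier results of these data known; the CArG-like and MCAT searches and the counts by sign were added after the values were seen.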

Additional observations from a re-analysis of the deposited data

How the results depend on the processing

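The median differences kept their sign in every alternative run, and 8 or 9 of the 10 genes were above 0 for TAC minus normal, 9 or 10 below 0 for TAC-R minus TAC, and 7 to 9 below 0 for TAC-R minus normal; with the dimmer rows left out, which drops Cnn1, each count was 8 of 9. The single call, Cnn1 under TAC, was lost (0 called) with a fit to the 2 groups alone, with the controls included, with the replicate number as a block and with the dimmer rows left out, which removes Cnn1, and ranged from 0 to 0 when 1 array was left out; the cause was not tested. It was kept with an intensity trend, robust moderation, median centring, quantile normalization and without ceiling rows. For TAC-R minus TAC, 2 were called with an intensity trend and 1 with the dimmer rows left out. Without 1 array, the median ranged from 0.39 to 0.52 for TAC minus normal, from -0.89 to -0.56 for TAC-R minus TAC and from -0.53 to -0.18 for TAC-R minus normal. Without 1 array signs turned for Smtn under TAC (from -0.11 to 0.32), Myocd after release (from -0.082 to 0.31), and, against normal, Acta2 (from -0.91 to 0.049), Tagln (from -0.21 to 1.19) and Pdgfrb (from -0.77 to 0.10); none of these differences was called. Same-numbered arrays did not deviate together (correlations over rows of 0.012, -0.0093 and -0.013). The correlations cannot show whether same-numbered hearts were handled together. With the replicate block the calls over all rows were 36, 47 and 11 in the 3 comparisons, against 59, 100 and 21. Over all rows the calls were 170, 344 and 156 with an intensity trend, 39, 44 and 10 with the controls included, 35, 37 and 12 from the 2 groups alone, and 87, 187 and 68 with the dimmer rows left out. The TAC-R minus normal count was also 54 with median centring and 37 without ceiling rows. Leaving out 1 array gave 0 to 35, 4 to 37 and 0 to 12. Each gene has 1 row, so averaging rows changes nothing.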
